A study of Sus scrofa with 9 samples.

Results

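The genes described here are the insulin-like growth factor (IGF) axis of the liver, measured as mRNA in growing Wujin pigs, a Chinese breed, on 3 levels of dietary iron. They are the 10 genes IGF1, IGF2, GHR, SOCS2, IGFALS, IGFBP1, IGFBP2, IGFBP3, IGFBP4 and IRS1, taken by their gene symbols from a table of 25918 genes. All 10 are in the table, and all 10 passed the filter on low values, so that they stand among the 12584 genes tested. The symbols were not chosen by any measured value of these libraries, but earlier results of the same data were known when the list was written.

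Pigs entered the trial at 35 days of age and were housed singly, with a prefeeding period of 5 days before 30 days on the test diets. All groups ate the same basic diet, which received no added iron in the low-iron group, 100 mg/kg of iron as iron glycinate in the control group, and 200 mg/kg of the same compound in the high-iron group. Liver RNA of 3 pigs per group, drawn at random from the pigs of that group, was sequenced, which gives 9 libraries. Low-iron therefore means that no iron was added, not a diet free of iron. The study reports that serum was drawn with the stomach empty around slaughter, and that livers were collected afterwards. For how long feed was withheld is not stated. Each library is named here by its group and by the animal number in its label, which is 2, 3 and 7 in the low-iron group, 4, 5 and 6 in the control group, and 2, 7 and 8 in the high-iron group. The sex of the sequenced pigs is not in the labels, and EIF1AY, a gene on chromosome Y, was listed at 0 in low-iron pig 3, control pig 5 and high-iron pigs 2 and 8.

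Growth hormone from the pituitary binds its receptor GHR on the hepatocyte and, through the kinase JAK2 and the transcription factor STAT5, drives the synthesis of IGF1, of the acid-labile subunit encoded by IGFALS and of the feedback inhibitor SOCS2. IGF1 and IGF2 travel in blood bound to binding proteins of the IGFBP family, of which IGFBP3 forms with the acid-labile subunit the long-lived ternary complex. The liver is the main source of circulating IGF1, and its output depends on nutrition: insulin represses IGFBP1 through the factor FOXO1, and the transcripts of IGFBP1 and IGFBP2 are known to rise in fasting.

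The starts of 2 members hold a sequence of the kind through which these signals are known to act, and those stretches are shown because growth hormone and insulin are the regulators just named. The 250 bases before the annotated start of each member were read on both strands from the Sscrofa11.1 genome with its RefSeq annotation and searched for TTCNNNGAA (the STAT5 motif), CAAAACA (the core of the insulin response element) and ACGTG (the HIF-1 core). The sequences run 5′ to 3′ along the strand of the gene, with CAAAACA in capitals for IGFBP1 and the STAT5 match in capitals for IGFALS, whose ACGTG match stays in lower case. The IGFBP1 stretch is chr18:50022930-50023049 on the minus strand, from base 250 to base 131 before the start. The IGFALS stretch is chr3:40173445-40173594 on the plus strand, the 150 bases before the start.
IGFBP1: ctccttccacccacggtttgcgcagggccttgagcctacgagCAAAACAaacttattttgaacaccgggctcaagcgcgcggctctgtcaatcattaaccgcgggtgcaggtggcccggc
IGFALS: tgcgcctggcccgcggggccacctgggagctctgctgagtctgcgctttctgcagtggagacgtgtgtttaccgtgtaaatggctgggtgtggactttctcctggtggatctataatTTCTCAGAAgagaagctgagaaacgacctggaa

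Among the 10 members, IGFALS held the 1 STAT5 match, and IGFBP1 held the 1 CAAAACA match. ACGTG was found before IGFALS and before IGFBP2. Over the 20650 protein-coding genes whose 250 bases could be read, TTCNNNGAA occurred in 6.38%, CAAAACA in 4.3% and ACGTG in 18.2%, so that matches of these short motifs are common. A match gives letters in the reference genome and no binding was measured.

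The values are FPKM, fragments counted per unit of transcript length and scaled to the mapped fragments of the library. Levels can thus be set side by side per length between genes, while differences between libraries also depend on the scaling chosen. IGFBP4 was the most abundant member, with a mean of 197 FPKM ± 57.3 (SD, n = 9 libraries), and IRS1 the least abundant, with 3.78 FPKM ± 0.816. Between these ends the mean levels stood in the order IGF2 (97.0 FPKM), IGFBP1 (94.9 FPKM), IGFBP2 (64.1 FPKM), GHR (48.1 FPKM), SOCS2 (25.5 FPKM), IGFALS (25.1 FPKM), IGFBP3 (22.1 FPKM) and IGF1 (5.92 FPKM). Of the 9 neighbouring pairs in this order, 2 had ranges that did not touch: IGFBP4 lay above IGF2, and IGFBP3 lay above IGF1, in 9 of 9 libraries each. GHR also lay above SOCS2 in 9 of 9 libraries, although their ranges overlapped, and IGFALS lay above IGFBP3 in 8 of 9. The remaining neighbours kept their order in 4 to 6 of 9 libraries and did not differ beyond their spread.

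**Figure D1:**
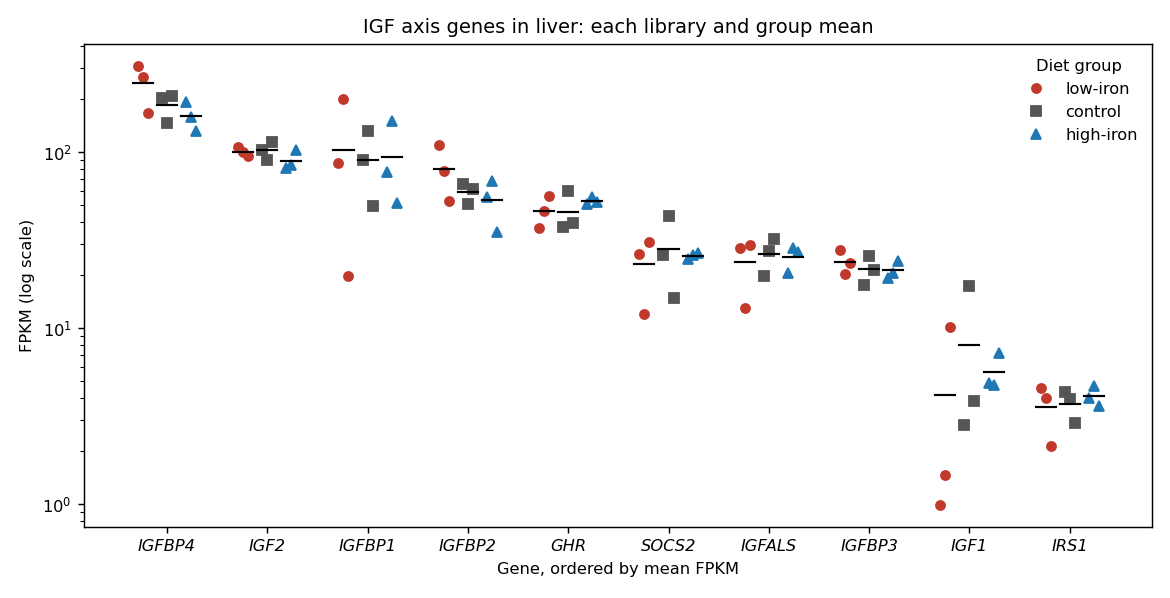
FPKM of each member (log axis) in each of the 9 libraries, 1 point per library, with colour and shape for the diet group and a bar at the group mean. IGF1 spans 0.989 to 17.4 FPKM and IGFBP1 spans 19.8 to 200 FPKM, whereas the 9 points of IGF2 stay between 80.8 and 114 FPKM, and in no gene are the points of 1 group apart from those of another.

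The ligand IGF1 (chr5:81762027-81909253, plus strand), the growth factor that carries much of the effect of growth hormone on body growth, varied more between pigs of 1 group than between diets. In the low-iron group, IGF1 stood at 0.989, 1.47 and 10.1 FPKM in pigs 2, 3 and 7. In the control group, IGF1 stood at 2.80, 17.4 and 3.86 FPKM in pigs 4, 5 and 6, and in the high-iron group at 4.84, 4.71 and 7.18 FPKM in pigs 2, 7 and 8. The 2 lowest libraries were both low-iron and the highest was control, but low-iron pig 7 had the second highest value of all, and the 3 groups overlapped.

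The group means of IGF1 were 4.18 FPKM ± 5.12 in low-iron, 8.005 FPKM ± 8.12 in control and 5.58 FPKM ± 1.39 in high-iron pigs (SD, n = 3 each). On the scale log2(FPKM + 0.1), which understates changes of low genes, IGF1 was lower by a difference of -1.18 (SE 0.81) in low-iron than in control pigs, with a 95% interval from -2.98 to 0.63 and a limma adjusted p of 0.9998. High-iron differed from control by -0.07 (limma adjusted p = 0.994) and from low-iron by 1.11, with an interval from -0.69 to 2.91 (limma adjusted p = 0.824). None of the 3 differences exceeded the spread between pigs, and the intervals leave differences of over 2-fold in either direction for high-iron against control.

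Single libraries moved these IGF1 contrasts by more than 1.5 times. Without low-iron pig 7, IGF1 was lower in low-iron than in control pigs by a log2 difference of -2.16 (limma unadjusted p = 0.00704, adjusted p = 0.9997), and higher in high-iron than in low-iron pigs by 2.09 (limma unadjusted p = 0.00843, adjusted p = 0.894), which would pass the thresholds of fold and unadjusted p but not the adjustment over all genes. Without control pig 5, the difference of low-iron from control was -0.39 and that of high-iron from control 0.72. Without low-iron pig 2, low-iron differed from control by -0.55 and high-iron from low-iron by 0.48. Low-iron pig 7 also had the highest HAMP value of all libraries, 70.5 FPKM against 3.84 and 2.02 FPKM in low-iron pigs 2 and 3; HAMP encodes hepcidin, the liver hormone that restrains iron uptake. Control pig 4 and high-iron pig 2 had HAMP values of 50.3 and 52.3 FPKM with 2.80 and 4.84 FPKM of IGF1, so that a high HAMP did not always go with a high IGF1. Over the 9 libraries, on the log2 scale, the Pearson r of HAMP with IGF1 was 0.727 (exact permutation p = 0.0277, adjusted 0.999). Spearman rho was 0.667 (exact permutation p = 0.0589), and r was 0.665 with group means removed. TFRC, for the transferrin receptor, stood at 28.6 FPKM in low-iron pig 7, below low-iron pigs 2 and 3 (87.9 and 130 FPKM) and above all 3 control pigs (6.51, 17.0 and 7.51 FPKM in pigs 4, 5 and 6). The Pearson r of TFRC with IGF1 was -0.47 (exact permutation p = 0.202, adjusted 0.999) and Spearman rho was -0.2 (exact permutation p = 0.613). HAMP and TFRC were added after their values were seen. The part of the HAMP and TFRC differences in the IGF1 level of low-iron pig 7 was not tested.

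IGF1 had one of the widest spreads within groups in the whole table. Its highest value was 17.6 times its lowest, and its within-group SD of 1.29 on the log2 scale stood at the 97.7th percentile of the 12584 genes tested. Among 4643 genes whose mean level lay within a factor of 2 of that of IGF1, the percentile was 99.2. IGF2 (chr2:1469183-1496417, minus strand), the second ligand and an imprinted fetal growth factor, stood at the other end, with a within-group SD of 0.154 at the 5.74th percentile.

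IGF2 was measured at 106.2, 99.2 and 94.0 FPKM in low-iron pigs 2, 3 and 7, at 102 (pig 4), 89.6 (pig 5) and 114 FPKM (pig 6) in the control group, and at 80.8, 84.4 and 102 FPKM in high-iron pigs 2, 7 and 8. The lowest 2 values were high-iron, but the third high-iron pig lay among the others, and the groups overlapped. The largest of its differences was -0.20 for high-iron against control (SE 0.17, 95% interval -0.58 to 0.19, limma adjusted p = 0.965). The ratio of IGF2 to IGF1 mRNA ran from 5.16 in control pig 5 to 107 in low-iron pig 2 while IGF2 itself spanned 1.41-fold.

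GHR (chr16:27126300-27422618, plus strand), the growth hormone receptor, stood at 36.8, 46.1 and 55.8 FPKM in low-iron pigs 2, 3 and 7, at 37.6, 60.0 and 39.3 FPKM in control pigs 4, 5 and 6, and at 50.7, 55.0 and 51.7 FPKM in high-iron pigs 2, 7 and 8. The high-iron values lay close together, inside the range of the other groups. High-iron differed from control by 0.23 (SE 0.22, 95% interval -0.26 to 0.73) and from low-iron by 0.20 (interval -0.29 to 0.69) on the log2 scale, with limma adjusted p of 0.978 and 0.898.

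SOCS2 (chr5:89581081-89587424, minus strand), the inhibitor that growth hormone induces to end its own signal, stood at 26.2, 12.1 and 30.6 FPKM in low-iron pigs 2, 3 and 7, at 26.0, 43.0 and 14.7 FPKM in control pigs 4, 5 and 6, and at 24.6, 25.9 and 26.7 FPKM in high-iron pigs 2, 7 and 8. The extremes were low-iron pig 3 and control pig 5, and the groups overlapped. Its differences were -0.25 for low-iron against control (SE 0.40, 95% interval -1.14 to 0.63), 0.01 for high-iron against control and 0.27 for high-iron against low-iron, and none passed the test (limma adjusted p of 0.933 or more).

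IGFALS (chr3:40173595-40177789, plus strand), the acid-labile subunit whose start holds the STAT5 motif printed above, was expressed at 28.3, 13.03 and 29.7 FPKM in low-iron pigs 2, 3 and 7, at 19.7, 27.3 and 31.9 FPKM in control pigs 4, 5 and 6, and at 20.5, 28.3 and 26.9 FPKM in high-iron pigs 2, 7 and 8. Low-iron pig 3 was the lowest library, as it was for SOCS2, and the groups overlapped. Its log2 differences ran from -0.21 to 0.17 (SE 0.32 each; limma adjusted p of 0.950 or more).

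IGFBP1 (chr18:50018487-50022799, minus strand), the insulin-repressed binding protein, stood at 86.3, 200 and 19.8 FPKM in low-iron pigs 2, 3 and 7, so that the lowest and the highest of all 9 libraries were both low-iron. The control values were 89.4, 132 and 49.4 FPKM in pigs 4, 5 and 6, and the high-iron values were 77.1, 150 and 50.9 FPKM in pigs 2, 7 and 8. The 10.1-fold range was the second widest among the members, and its within-group SD of 1.15 on the log2 scale stood at the 96.9th percentile of all genes tested. The 3 log2 differences, -0.25, 0.01 and 0.26 (SE 0.72 each), lay well inside the spread between pigs (limma adjusted p of 0.970 or more). With 95% intervals as wide as -1.85 to 1.34 for low-iron against control, a 2-fold change in either direction lies within what these pigs allow.

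IGFBP3 (chr18:50002921-50009425, plus strand), the main carrier of circulating IGFs, is the neighbour of IGFBP1 on chromosome 18. They lie on opposite strands with their 3′ ends facing each other, 9061 bases apart and with 0 protein-coding genes between them. IGFBP3 was measured at 27.8, 20.2 and 23.3 FPKM in low-iron pigs 2, 3 and 7, at 17.5, 25.7 and 21.2 FPKM in control pigs 4, 5 and 6, and at 19.1, 20.5 and 24.0 FPKM in high-iron pigs 2, 7 and 8. It spanned 1.59-fold where its neighbour spanned 10.1-fold, and the Pearson r of the pair over the 9 libraries was -0.179. Its log2 differences were 0.15, -0.01 and -0.16 (SE 0.20 each; limma adjusted p of 0.919 or more), with overlapping groups.

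IGFBP2 (chr15:118822092-118850985, plus strand), a binding protein that is high in fetal and in poorly fed animals, stood at 110, 77.9 and 52.7 FPKM in low-iron pigs 2, 3 and 7, at 65.6, 50.7 and 61.3 FPKM in control pigs 4, 5 and 6, and at 55.6, 68.1 and 34.96 FPKM in high-iron pigs 2, 7 and 8. The 2 highest values were low-iron and the lowest was high-iron, but the groups overlapped. Low-iron was above control by 0.38 on the log2 scale (SE 0.30, 95% interval -0.29 to 1.05, limma adjusted p = 0.9998), and high-iron was below low-iron by a difference of -0.59 (interval -1.26 to 0.08, limma adjusted p = 0.743).

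IGFBP4 (chr12:21966524-21980043, minus strand), which binds IGFs until the protease PAPPA cleaves it, showed much the same order. Its values were 307, 264 and 166 FPKM in low-iron pigs 2, 3 and 7, 203, 145 and 207 FPKM in control pigs 4, 5 and 6, and 192, 157 and 132 FPKM in high-iron pigs 2, 7 and 8. Again low-iron pigs 2 and 3 were the highest and high-iron pig 8 the lowest, and low-iron pig 7 lay among the high-iron pigs. High-iron was below low-iron by a log2 difference of -0.59 (SE 0.26, 95% interval -1.17 to -0.002194), the only one of the 30 member contrasts with an unadjusted limma p under 0.05 (limma unadjusted p = 0.0493, adjusted p = 0.698). Its unadjusted limma p ran from 0.00702 without low-iron pig 7 to 0.205 with the animal number as a block. That block fit rests on the pigs of numbers 2 and 7, the only numbers shared by the low-iron and high-iron groups. The direction of the difference held in every alternative tried. IGFBP4 made up 39.7% to 63.4% of the summed FPKM of the 4 binding proteins.

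IRS1 (chr15:128245846-128307321, minus strand), the docking protein through which the insulin and IGF1 receptors signal, stood at 4.54, 3.98 and 2.13 FPKM in low-iron pigs 2, 3 and 7, at 4.30, 3.96 and 2.86 FPKM in control pigs 4, 5 and 6, and at 3.99, 4.65 and 3.62 FPKM in high-iron pigs 2, 7 and 8. The lowest value was that of low-iron pig 7, and the groups overlapped. Its log2 differences were -0.11, 0.15 and 0.26 (SE 0.29 each; limma adjusted p of 0.899 or more).

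A gene was called where it differed by 2-fold or more and its unadjusted p lay under 0.05. By this rule, 0 of the 10 members were called in any contrast. The background share of called genes was 0.882% for low-iron against control, 1.57% for high-iron against control and 1.54% for high-iron against low-iron, so that 0 of 10 is also near what the whole table gives. At an unadjusted limma p under 0.05 alone, 1 of the 10 members passed in high-iron against low-iron (background 7.15%) and 0 passed in the other contrasts (background 3.68% for low-iron and 5.59% for high-iron against control). The groups did not overlap for 0 of 10 members in any contrast, where 8.34%, 10.9% and 13.2% of all genes had groups that did not overlap. At an adjusted p under 0.05, limma called 0, 1 and 0 of all 12584 genes (0%, 0.00795% and 0%), none of them a member.

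The median log2 difference of the 10 members was -0.07 for low-iron against control, -0.02 for high-iron against control and 0.19 for high-iron against low-iron, beside medians of 0.08, 0.10 and 0.03 over all genes tested. The F statistic of the 3 diets was also set against its values under all 1680 assignments of the libraries (exact permutation test), and the members' p ran from 0.193 for IGFBP4 to 0.961 for IGFBP1. For a single pair of groups of 3, an exact two-sided permutation test cannot go below 0.1, and the lowest value among the members was 0.2, for IGFBP4 between high-iron and low-iron and for IGF2 between high-iron and control.

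How closely a missing call bounds the effect differed between members. For IGF2, GHR, IGFALS, IGFBP3 and IRS1, all 95% limma intervals of the 3 differences lay between -0.91 and 0.90 on the log2 scale, inside a 2-fold change. The limma intervals use a spread moderated toward that of other genes, so that these bounds depend on that moderation as well as on the pigs. For IGF1 and IGFBP1, and in at least 1 contrast for IGFBP2, IGFBP4 and SOCS2, the interval reached beyond a 2-fold change.

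**Figure D2:**
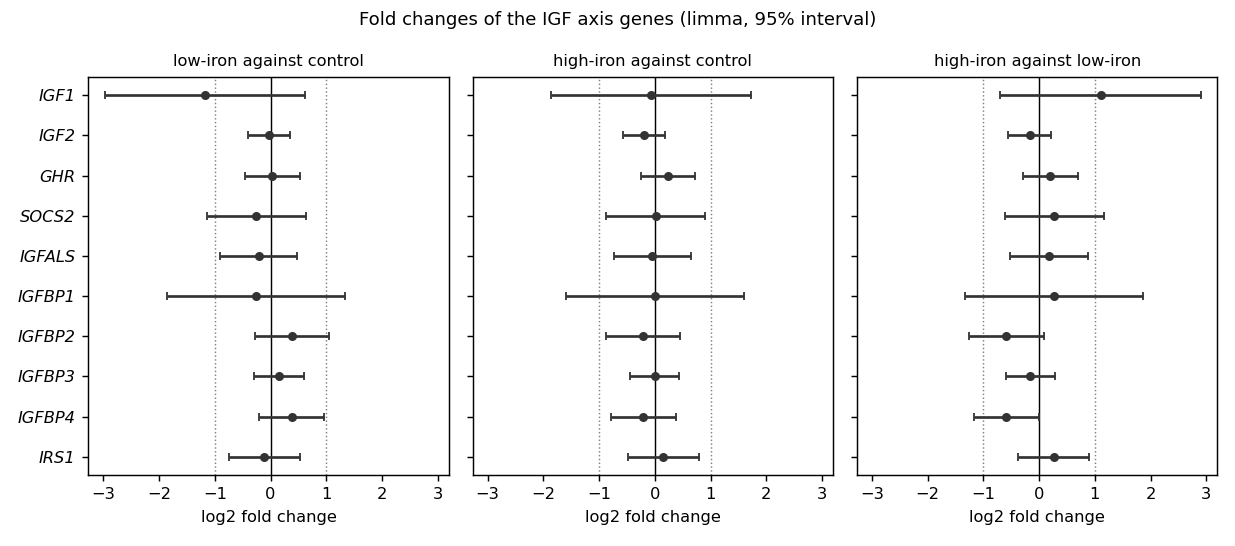
Log2 fold change of each member (log2(FPKM + 0.1), horizontal axis) in the 3 contrasts, with 95% intervals from the limma fit; the dotted lines mark a 2-fold change. The intervals of IGF1 and IGFBP1 are the widest, and 1 interval, that of IGFBP4 in high-iron against low-iron, ends just short of 0.

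Levels of several members moved together from pig to pig. IGFBP4 was low where IGF1 was high: over the 9 libraries, on the log2 scale, their Pearson r was -0.898 (exact permutation p = 0.00138) and Spearman rho -0.867 (exact permutation p = 0.00451). Low-iron pigs 2 and 3 had the lowest IGF1 and the highest IGFBP4. Without control pig 5 and low-iron pig 2, the libraries farthest from the median of IGF1, r was -0.839, and with group means removed it was -0.925. Among the 12583 genes set against IGF1, IGFBP4 ranked 2 from the lowest r.

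IGFBP2 had a Pearson r of -0.801 with IGF1 (exact permutation p = 0.0105) and a rho of -0.9 (exact permutation p = 0.00203), and ranked 43 from the lowest. Its r was -0.73 without the same pair of libraries and -0.77 with group means removed. GHR was high where IGF1 was high, with an r of 0.799 (exact permutation p = 0.00975) and a rho of 0.9 (exact permutation p = 0.00203), and ranked 50 from the highest. Its r was 0.597 without those 2 libraries, so that the relation rests in part on them, and 0.907 with group means removed.

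The other members were less closely related to IGF1. SOCS2, a growth hormone target like IGF1, had an r of 0.637 (exact permutation p = 0.0603; rho 0.633, exact permutation p = 0.076), and r was 0.777 without control pig 5 and low-iron pig 2. IGFALS had an r of 0.435 (exact permutation p = 0.24; rho 0.183, exact permutation p = 0.644), and IGFBP1 one of -0.351 (exact permutation p = 0.356; rho -0.333, exact permutation p = 0.385). These values changed with the libraries used: without the same pair, r was 0.793 for IGFALS and -0.811 for IGFBP1. IGF2, IRS1 and IGFBP3 had r of -0.426, -0.429 and 0.138 (exact permutation p of 0.253, 0.249 and 0.72) and rho of -0.55, -0.533 and 0.233 (exact permutation p of 0.133, 0.148 and 0.552).

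An unadjusted exact permutation p under 0.05 was reached by 3 of the 9 other members (IGFBP4, IGFBP2 and GHR), against 3.82% of all 12583 genes. After Benjamini-Hochberg adjustment over the 12583 relations, the exact permutation p of every member was 0.999 or more, and the lowest over all genes was 0.763, so that none passed the correction. Each p comes from all 362880 orders of the 9 libraries. The relation was of the same sign under each scaling, each pseudocount and each left-out library tried for these 3 members, with r from -0.933 to -0.765 for IGFBP4, from -0.901 to -0.668 for IGFBP2 and from 0.714 to 0.865 for GHR. These alternatives were chosen after the values were seen. Without low-iron pig 2, the exact permutation p of IGFBP2 was 0.0702, past the threshold of 0.05.

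**Figure D3:**
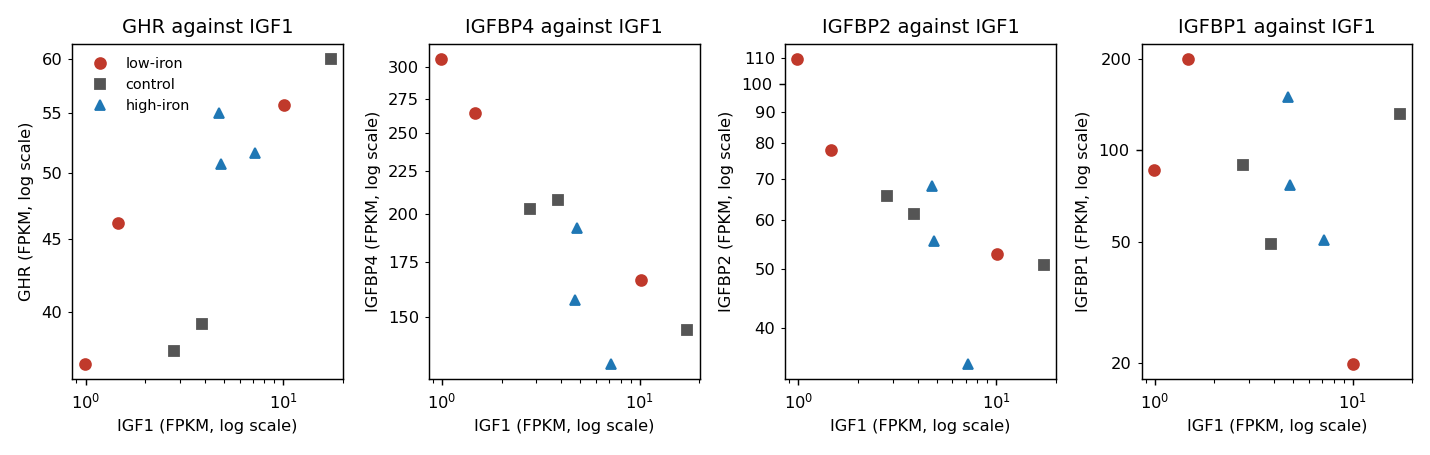
FPKM of GHR, IGFBP4, IGFBP2 and IGFBP1 (vertical axes, log scale) against FPKM of IGF1 (horizontal axes, log scale), 1 point per library, with colour and shape for the diet group. IGFBP4 and IGFBP2 are lower and GHR is higher in the libraries with more IGF1. Low-iron pigs 2 and 3 stand at the low end of IGF1 and the high-iron pigs lie next to each other along it, while the 3 groups overlap. In the IGFBP1 panel control pig 5 (17.4 FPKM of IGF1, 132 FPKM of IGFBP1) stands apart from the other points.

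Relations among the remaining members are given as a description, without a test. IGFBP2 and IGFBP4 varied together (Pearson r = 0.887, Spearman rho = 0.817), although they lie on different chromosomes. IGFBP1 went with IRS1 (r = 0.842, rho = 0.667, and r = 0.86 with group means removed), and low-iron pig 7 was the lowest library for both. IGF2 ran against GHR (r = -0.725, rho = -0.7), and IGFBP4 ran against GHR (r = -0.754, rho = -0.817).

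Of genes outside the list, KAZN, PDXP and PDCL were the 3 named genes with the highest Pearson r to IGF1 over the 9 libraries. KAZN, which encodes the junction-associated protein kazrin, had an r of 0.947 (exact permutation p = 0.000127, adjusted 0.763) and a rho of 0.95 (exact permutation p = 0.000353, adjusted 0.857), and ran from 0.898 FPKM in low-iron pig 2 to 2.81 FPKM in control pig 5, the lowest and the highest libraries for IGF1 too. PDXP, a phosphatase of pyridoxal phosphate, had an r of 0.93 (exact permutation p = 0.000289, adjusted 0.91; rho 0.85, exact permutation p = 0.00607, adjusted 1.0), with 1.33 FPKM in low-iron pig 2 and 4.79 FPKM in control pig 5. PDCL, a phosducin-like protein, had an r of 0.919 (exact permutation p = 0.000182, adjusted 0.763; rho 0.967, exact permutation p = 0.000165, adjusted 0.857), with 6.35 FPKM in low-iron pig 3 and 9.44 FPKM in control pig 5. Without control pig 5 and low-iron pig 2, their r were 0.872, 0.838 and 0.902. None of them passed the adjustment over all genes.

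**Figure D4:**
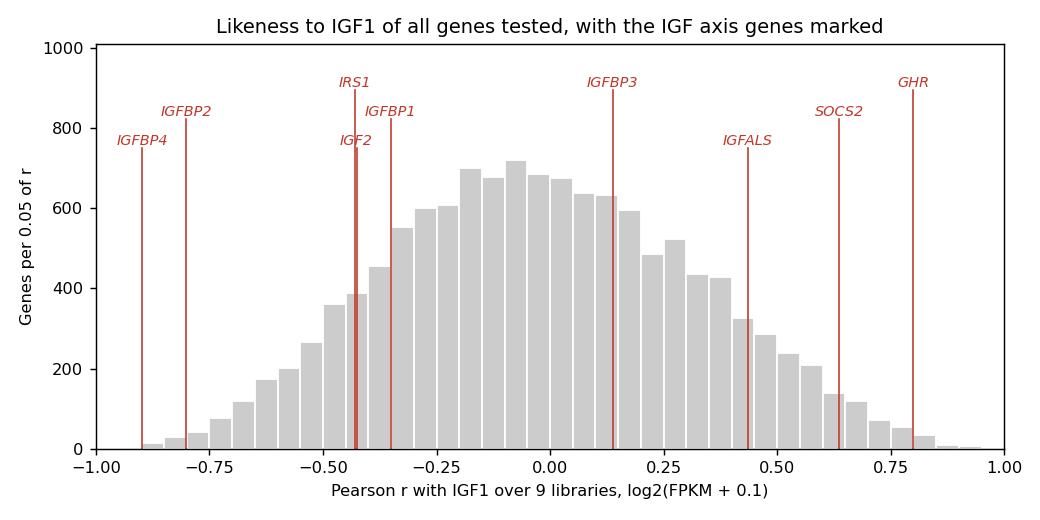
Number of genes (vertical axis) by their Pearson r with IGF1 over the 9 libraries (horizontal axis, bins of 0.05), with the 9 other members marked at their r. IGFBP4 and IGFBP2 stand in the left tail and GHR in the right tail, while the median r of all genes is -0.0298.

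Genes around the members in the pathway were read from 7 lists, chosen with earlier results known, and no set test was run on them. The background given with each list is the share of all genes tested that was called in the same contrast. Of 7 tested receptors and further binding proteins, 1 was called in high-iron against control (background 1.57%): HTRA1, a secreted serine protease that cleaves IGF-binding proteins. HTRA1 stood at 3.24, 8.10 and 4.10 FPKM in low-iron, 5.90, 2.01 and 6.85 FPKM in control and 7.96, 10.6 and 8.44 FPKM in high-iron pigs, in the order of animal numbers given above. All high-iron values lay above all control values, and the log2 difference was 1.02 (SE 0.45, limma unadjusted p = 0.0438, adjusted p = 0.892). Summed markers of hepatic stellate cells and fibroblasts moved with it: they stood at 135, 335 and 150 FPKM in low-iron, 175, 130 and 221 FPKM in control and 332, 224 and 308 FPKM in high-iron pigs, again with all high-iron values above all control values. Their part in the HTRA1 difference was not tested. The difference was 0.48 without control pig 5, and HTRA1 was no longer called with a pseudocount of 1, without the filter, under median-of-ratios scaling, quantile normalization or sample weights, or without low-iron pig 7 or any 1 of the high-iron pigs. The receptors IGF1R, IGF2R and INSR were not called in any contrast. The list's median log2 difference in high-iron against control was 0.29, beside 0.10 over all genes.

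Among 14 tested genes known to rise in fasting or under FOXO1, PDK4 and SESN3 were called. In low-iron against control 1 of the 14 was called, PDK4 (background 0.882%), and in high-iron against low-iron 2 were, PDK4 and SESN3 (background 1.54%). PDK4, the kinase that holds back glucose oxidation, stood at 20.2, 23.9 and 38.8 FPKM in low-iron, 59.3, 85.5 and 39.4 FPKM in control and 26.7, 74.8 and 90.5 FPKM in high-iron pigs. All low-iron values lay below all control values. PDK4 was lower in low-iron than in control pigs by a log2 difference of -1.13 (SE 0.45, limma unadjusted p = 0.0292, adjusted p = 0.9998) and higher in high-iron than in low-iron pigs by 1.09 (limma unadjusted p = 0.0353, adjusted p = 0.678), although high-iron pig 2 lay within the low-iron range. The call against control was lost without low-iron pig 2 or 3 or control pig 4 or 5, with log2 differences from -1.13 to -0.86. The call of high-iron against low-iron was lost with the animal number as a block (0.67), with EIF1AY as a covariate (1.10, limma unadjusted p = 0.0501), and without low-iron pig 2 or 3 or high-iron pig 7 or 8 (0.75 to 1.01).

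SESN3, a stress protein that restrains mTORC1, stood at 1.52, 1.29 and 1.27 FPKM in low-iron and 3.41, 2.22 and 2.96 FPKM in high-iron pigs, without overlap. In control pigs 4, 5 and 6, SESN3 stood at 1.999, 1.62 and 1.18 FPKM. These control values overlapped those of low-iron and lay below all high-iron values. The log2 difference of SESN3 for high-iron against low-iron was 1.00 (SE 0.27, limma unadjusted p = 0.00354, adjusted p = 0.573), just past 2-fold. It was below 2-fold in 6 of the 11 alternatives that left out no single library, and without low-iron pig 3 or 7 or high-iron pig 2 or 8. The median log2 differences of the list were -0.18, -0.15 and -0.14 for low-iron against control, high-iron against control and high-iron against low-iron. FOXO1 is known to induce PDK4 and SESN3 as well as IGFBP1, but their differences did not share a pattern. In the same order, they were -1.13, -0.05 and 1.09 for PDK4 and -0.20, 0.81 and 1.00 for SESN3. Those of IGFBP1 were -0.25, 0.01 and 0.26.

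The 8 tested genes of the thyroid hormone axis held 1 call, in low-iron against control (background 0.882%). THRB, the main thyroid hormone receptor of the liver, stood at 2.84, 1.45 and 1.89 FPKM in low-iron, 4.94, 5.38 and 3.10 FPKM in control and 3.42, 4.197 and 3.62 FPKM in high-iron pigs. All low-iron values lay below those of the other groups. The log2 difference of low-iron against control was -1.10 (SE 0.29, limma unadjusted p = 0.00299, adjusted p = 0.9998), and high-iron lay above low-iron by 0.88 without passing the fold threshold. The call was lost with a pseudocount of 1 (-0.84), without low-iron pig 3 (-0.88) and without control pig 5 (-0.95).

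No gene was called among 16 tested genes of growth hormone signalling, 39 of insulin and IGF signalling, 4 IGFBP proteases or their inhibitors, and 4 IGF2 mRNA-binding or fetal liver genes. The background share of called genes was 0.882% to 1.57% in the contrasts, so that lists of this size without a call are near what the whole table gives. In the growth hormone list the smallest unadjusted p belonged to PTPN6, a phosphatase that acts on JAK2, and to SOCS3, a second feedback inhibitor. PTPN6 was higher in high-iron than in low-iron pigs by a log2 difference of 0.51 (SE 0.19, limma adjusted p = 0.643). Summed markers of Kupffer cells and macrophages and of T and NK cells, given below, were also higher in all high-iron than in all low-iron pigs. Their part in the PTPN6 difference was not tested. SOCS3 in high-iron pigs differed from control by -0.99 (SE 0.40, limma adjusted p = 0.892). In the insulin and IGF list the smallest unadjusted p belonged to PIK3CB, a catalytic subunit of PI3K, and to GSK3B, a kinase that AKT inhibits. The log2 differences were 0.53 (SE 0.18) for PIK3CB in high-iron against low-iron and 0.50 (SE 0.19) for GSK3B in high-iron against control (limma adjusted p of 0.637 and 0.892).

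The lists of proteases and of fetal genes had low levels. STC2, an inhibitor of PAPPA, was listed at 0 in control pig 4 and at 2.59 FPKM in low-iron pig 2, and ADAM28 ran from 0.175 to 1.45 FPKM; their differences had SE of 0.85 and 0.68. AFP, the fetal albumin, had group means of 0.739, 0.380 and 0.543 FPKM in low-iron, control and high-iron pigs, and IGF2BP2 had 0.918, 0.526 and 0.495 FPKM. With SE of 0.74 and 0.50 on the log2 scale, no difference of these genes exceeded the spread between pigs.

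The libraries were those of liver: ALB stood at 46231 to 74134 FPKM, and the summed hepatocyte markers at 77800 to 100000 FPKM. The hepatocyte sum took 10 gene symbols, which had 11 entries above the filter on low values. Summed markers of Kupffer cells and macrophages (10 of 10 genes in the table) were 862 to 1100 FPKM in high-iron, 560 to 787 FPKM in control and 665 to 820 FPKM in low-iron pigs, and those of T and NK cells (8 of 9) were 29.3 to 52.0, 18.2 to 28.4 and 17.6 to 23.7 FPKM. Stellate cell and fibroblast markers (10 of 10) were 224 to 332 FPKM in high-iron, 130 to 221 FPKM in control and 135 to 335 FPKM in low-iron pigs. Sinusoidal endothelial markers (10 of 10) were 271 to 318 FPKM in high-iron, 217 to 251 FPKM in control and 224 to 292 FPKM in low-iron pigs. Groups overlapped in the lists that follow, given in the same order. Bile duct markers (5 of 6) were 27.4 to 42.3, 11.4 to 32.2 and 13.2 to 35.2 FPKM. B and plasma cell markers (8 of 8) were 89.5 to 143, 94.3 to 148 and 111 to 126 FPKM. Erythroid markers (7 of 8) were 351 to 841, 212 to 1450 and 478 to 2460 FPKM, highest in low-iron pig 7. No marker gene in the table was at 0 in all libraries. The Pearson r of IGF1 with the summed markers was 0.537 for hepatocytes, 0.528 for endothelial cells and between -0.265 and 0.289 for the other 6 lists, given as a description, and the part of cell composition in the members' levels was not tested. In bulk liver, fewer cells of a type and less RNA per cell cannot be told apart.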

How the data were processed

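Liver RNA of 9 Wujin pigs, 3 per diet, was sequenced from NEBNext Ultra libraries. The authors removed adapter and low-quality reads, mapped the rest to the Sscrofa11.1 genome by HISAT2, ran StringTie on the alignments and deposited FPKM values of 25918 genes in 1 table. The table holds no counts, so that the depth behind a value is unknown here and its precision rests on the spread between pigs. The limma p-values set a difference against the within-group spread, pooled over the 3 groups and moderated toward that of genes of similar level. The permutation p-values come from reordering or reassigning the libraries. FPKM sums per library ran from 416922 to 456420, with 16235 to 17817 genes above 0. No counting mode for strand is given in the sources used here.

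Groups came from the series' own assignment of library names to diets. Gene numbers were read as serial numbers in NCBI annotation release 106, counted from 0. By this reading all 20660 numbered genes are protein-coding, whereas a shift of the numbering by 1 leaves 15031 that are. The other 5258 genes are new and unnamed.

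Tests took log2(FPKM + 0.1) of the 12584 genes that averaged at least 0.5 FPKM. R 4.3.3 with limma 3.58.1 fitted all 9 libraries in 1 linear model (6 residual degrees of freedom), with trended empirical Bayes and Benjamini-Hochberg adjustment over all genes. Calls took a fold of 2 and an unadjusted p of 0.05, which were also the study's criteria; a count model could not be used on FPKM. Exact permutation tests and correlations used Python 3.11.15, numpy 2.4.6, scipy 1.17.1 and pandas 2.3.3. The fit was tested on simulated data. Alternatives changed the pseudocount (1, 0.01), the filter, the scaling between libraries, sample weights, the groups fitted, EIF1AY as a covariate, the animal number as a block, and each library in turn.

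The members and the gene lists were chosen with earlier results of these data known. Besides the members, the text names the genes of each list that were called, or the 2 with the smallest unadjusted p where none was, and the 3 named genes with the highest Pearson r to IGF1. HAMP, TFRC and EIF1AY were added after their values were seen. Sequences and coordinates are those of Sscrofa11.1 (RefSeq). No protein sequence was used here.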

Additional observations from a re-analysis of the deposited data

How the results depend on the processing

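The table holds FPKM without counts, so that depth cannot be weighed gene by gene. By the moderated limma intervals, 3 pigs per group bound 5 of the 10 members to within a 2-fold change and the others less closely. Of the 580 alternative values of the 30 member differences, 532 kept direction and call, and 17 of the 30 differences changed sign at least once, each of them smaller than its standard error. The cause was not tested.

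The number of members called stayed 0 under each alternative that left out no single library. With a library left out, it ran from 0 to 1 in low-iron against control and in high-iron against low-iron, where IGF1 was called without low-iron pig 7, and was 0 in high-iron against control. The exact permutation test of the 3 diets gave 0 members with p under 0.05 under all 5 scalings and pseudocounts tried. The study allotted pigs to the groups at random and names no pairing by animal number. Deviations from group means correlated at 0.0183 for number 2 and 0.0213 for number 7, and from -0.159 to 0.16 for low-iron and high-iron pigs of unlike number. With only those numbers shared, the correlations cannot show whether the numbers pair the pigs. Control pigs share no number with the others, so that no block could be fitted for their contrasts. The block fit used only the low-iron and high-iron libraries. Only numbers 2 and 7 occur in both groups, so that its estimates rest on the pigs of those numbers. With the animal number as a block, high-iron against low-iron gave 0.55 for IGF1, -0.38 for IGFBP4, and a changed sign for IGFALS (-0.26) and SOCS2 (-0.17). In that fit 0 members and 458 of all genes were called, against 194 without the block, and so few pigs give that count little weight.

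Small differences that changed sign, all on the log2 scale, were in high-iron against control those of IGFBP3 (0.0209 as TPM, 0.16 with sample weights), IGFBP1 (-0.12 under median-of-ratios scaling, -0.16 with sample weights, -0.19 with EIF1AY as a covariate), IGFALS (0.13 with sample weights, 0.0866 with EIF1AY), IGF1 (0.48 with sample weights) and SOCS2 (-0.11 under median-of-ratios scaling, -0.0322 under quantile normalization). In low-iron against control they were those of IGFALS (0.0348 with sample weights) and GHR (-0.0499 under median-of-ratios scaling, -0.0575 under quantile normalization).

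With 1 library left out, low-iron against control ran from -0.32 to 0.21 for IRS1, -1.01 to 0.65 for IGFBP1, -0.42 to 0.17 for IGFALS, -0.11 to 0.25 for GHR, -0.65 to 0.15 for SOCS2, -0.12 to 0.0566 for IGF2 and -2.16 to -0.39 for IGF1. High-iron against control ran from -0.0202 to 0.26 for IRS1, -0.14 to 0.13 for IGFBP3, -0.41 to 0.37 for IGFBP1, -0.42 to 0.0629 for IGFBP2, -0.24 to 0.11 for IGFALS, -0.58 to 0.72 for IGF1 and -0.38 to 0.39 for SOCS2. High-iron against low-iron ran from -0.0635 to 0.47 for IRS1, -0.65 to 1.02 for IGFBP1, -0.21 to 0.38 for IGFALS, -0.14 to 0.53 for SOCS2 and 0.48 to 2.09 for IGF1. The Pearson r of IGF1 with IGFBP3 ran from -0.134 to 0.777.

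The genes called in each list also moved. Receptors and further binding proteins went from 1 to 0 with a pseudocount of 1, without the filter, and under median-of-ratios scaling or quantile normalization (0 to 2 with a library left out). Proteases went from 0 to 1 with sample weights (0 to 1). Growth hormone signalling went from 0 to 1 with the EIF1AY covariate, quantile normalization or median-of-ratios scaling (0 to 1), and insulin and IGF signalling and the fetal genes ran from 0 to 1 with a library left out. Fasting genes went from 2 to 1 with a pseudocount of 1, quantile normalization, sample weights and the EIF1AY covariate (0 to 3), and thyroid genes from 1 to 0 with a pseudocount of 1 (0 to 2).

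Over all genes, the calls of 111, 197 and 194 in low-iron against control, high-iron against control and high-iron against low-iron became 34, 74 and 67 with a pseudocount of 1 and 331, 504 and 458 without the filter. With sample weights the first was 171 and the last 334. The first was 186, 209 and 171 without low-iron pig 2, control pig 5 and control pig 6, the second 296 without control pig 4, and the last 333 without low-iron pig 3. In the same order, higher and lower calls were 75 and 36, 160 and 37, and 127 and 67. They were 53 and 47, 96 and 57, and 105 and 80 under median-of-ratios scaling, and 51 and 46, 83 and 68, and 85 and 99 under quantile normalization. These scalings moved the median log2 difference of all genes by -0.13 and -0.11 in high-iron against control, which is over 0.1 and larger than the members' own median there.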
